A study of Mus musculus with 12 samples.

Results

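Acid secretion by mouse osteoclasts was examined through 8 genes that carry it out and whose loss is linked to osteopetrosis, the disease of dense, unresorbed bone. The genes are Tcirg1, Atp6v0d2, Clcn7, Ostm1, Car2, Snx10, Plekhm1 and Slc4a2. They were chosen by their roles, with earlier results of these data known, as the rows of these names among 55806 deposited genes. All 8 passed the filter on low values that kept 12237 genes. Osteoclasts, which resorb bone, arise from monocytes under the cytokines M-CSF and RANKL. Marrow monocytes of 8 to 12 week old mice had been given both for 4 days, and RNA-seq was run on 12 libraries. The groups of 3 libraries each were male Per1 knockout, male control, female Per1 knockout and female control. The Per1 protein represses the circadian clock. The genotype is given as Per1 knockout or Control, and the library names carry cKO or Cont in its place, which the labels do not spell out. No strain, allele or Cre driver is named, nor which cells carried the deletion, nor whether a library came from 1 animal or from pooled animals. The labels call the replicates biological, each with a number and a batch of the same number. Which cultures or animals set the replicates apart is not stated, so each p-value speaks only to how far the samples themselves spread, which may be technical in part.

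An osteoclast resorbs bone by sealing off a patch of its surface and acidifying the space beneath through a folded membrane, the ruffled border. Carbonic anhydrase 2 (Car2) makes protons and bicarbonate from carbon dioxide and water. The vacuolar proton pump (V-ATPase), with the a3 subunit encoded by Tcirg1 and the d2 subunit encoded by Atp6v0d2, moves the protons out. The chloride-proton exchanger ClC-7 (Clcn7), stabilised by its partner Ostm1, carries chloride alongside, and the anion exchanger Ae2 (Slc4a2) returns bicarbonate to the blood side in exchange for chloride. Snx10 and Plekhm1 act in the traffic of endosomes and lysosomes that builds the ruffled border. In humans, loss-of-function variants of TCIRG1, CLCN7, OSTM1, SNX10, PLEKHM1, CA2 and SLC4A2 cause forms of osteopetrosis. Mice without Atp6v0d2 have raised bone mass, with a defect in the fusion of osteoclast precursors.

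Several features of the libraries bear on the values that follow. Rebuilt fragments summed to between 15366600 and 24346288 per library. Ribosomal RNA genes took 0.51% of them in male knockout 1 and 0.44% in male control 3. They took 0.46% in female control 1 and 0.53% in female control 3, against 1.17% to 1.48% in all other libraries. The low female libraries are all controls, so this share and the genotype label overlap in females. Its part in the values was not tested. Per1 transcript was not lower in all libraries labelled knockout. It averaged 2.67 ± 0.314 FPKM (fragments scaled by gene length and by depth) in male knockout and 3.34 ± 0.563 FPKM in male control, and 3.57 ± 0.651 FPKM in female knockout and 2.94 ± 0.441 FPKM in female control (SD, n = 3 each). A gene-level value does not show whether part of the transcript was removed, so knockout below means the libraries labelled so. The 10 osteoclast markers were present in every library and summed to between 9649 and 17332 FPKM. Ctsk, which encodes the collagen-degrading protease cathepsin K, had the third highest control mean of all genes tested. Stromal markers summed to at most 6.62 FPKM and erythroid markers to at most 8.02 FPKM. Monocyte and macrophage markers summed to between 4740 and 11376 FPKM. Neutrophil markers summed to between 1428 and 2966 FPKM, and lymphocyte markers to between 17.1 and 63.7 FPKM. In 3 libraries 18 interferon response genes summed far higher than elsewhere: 927 FPKM in female knockout 1, 1175 FPKM in female knockout 2 and 1047 FPKM in female control 2, against 113 to 325 FPKM in the other 9.

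All 8 genes were expressed in every library. Averaged over the 6 controls, Atp6v0d2 was the highest at 377 ± 51.0 FPKM (SD, n = 6), 102nd of the 12237 genes tested. It was followed by Tcirg1 at 332 ± 39.8 FPKM, Clcn7 at 108 ± 15.5 FPKM and Car2 at 87.9 ± 10.996 FPKM. Lower in the order came Snx10 at 74.7 ± 6.21 FPKM, Slc4a2 at 39.3 ± 7.17 FPKM, Plekhm1 at 25.0 ± 2.09 FPKM and Ostm1 at 20.3 ± 1.61 FPKM, 2536th of the genes tested. FPKM is scaled by gene length, so these levels can be set beside each other only roughly. For Ostm1, Plekhm1 and Slc4a2 the deposited length of 7211, 5968 and 8322 bases equals that of all annotated exons together. A gene expressed from a shorter transcript would be scaled down, and which transcripts were expressed is not shown. The control ranges of neighbours in this order overlapped for Atp6v0d2 and Tcirg1, for Clcn7 and Car2, for Car2 and Snx10, and for Plekhm1 and Ostm1. In each of the 12 libraries Tcirg1 stood above Clcn7, Clcn7 above Car2, Snx10 above Slc4a2, Slc4a2 above Plekhm1 and Plekhm1 above Ostm1. Atp6v0d2 stood above Tcirg1 in 8 of 12. Depth was not limiting, since the fewest rebuilt fragments on any of the 8 genes in any library were 2235, on Ostm1.

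**Figure D1:**
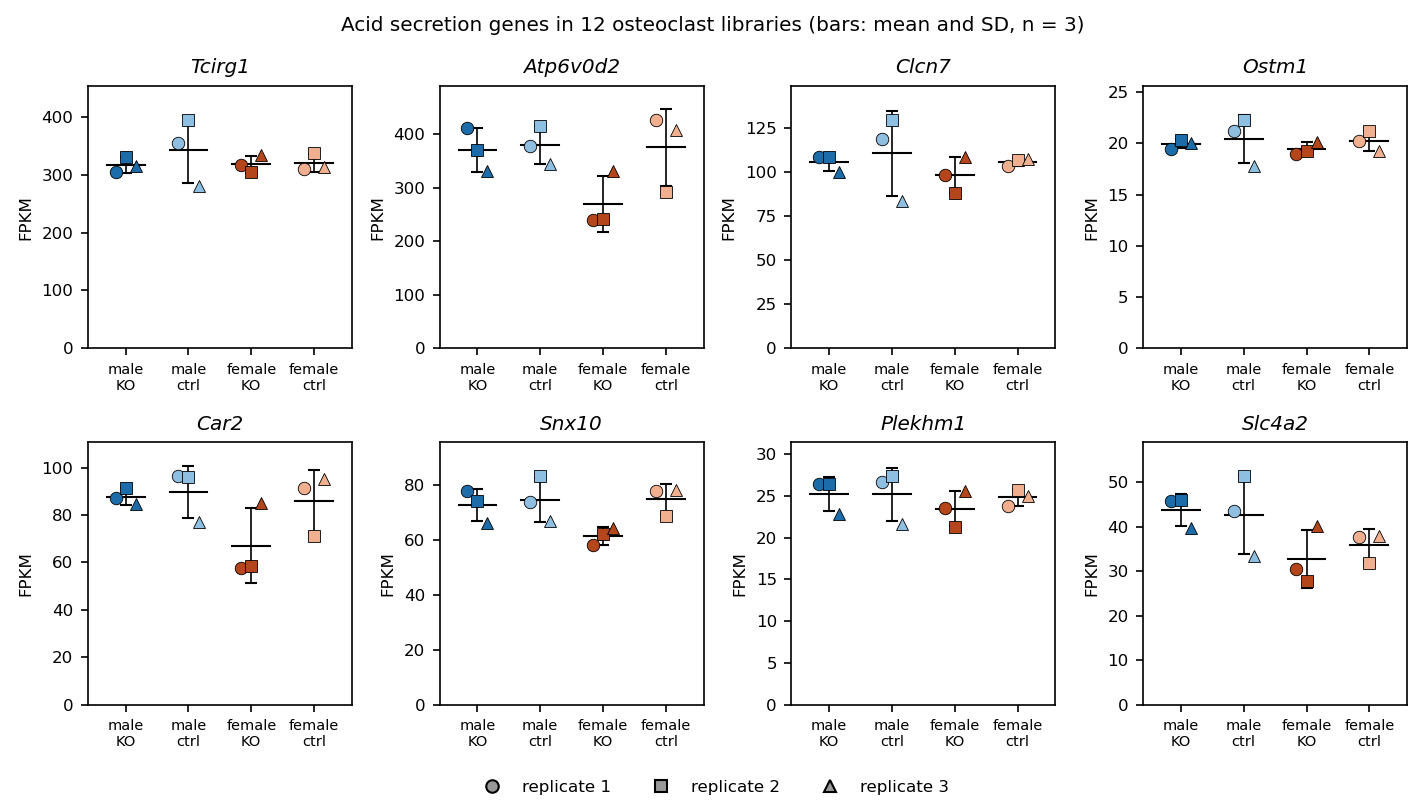
FPKM of the 8 genes in each library (points, shaped by replicate number), with the mean and SD of each group (bars, n = 3), in panels that start at 0; groups run from left to right as male knockout, male control, female knockout and female control. Knockout and control libraries overlap in every panel for males, and for females in all panels but Snx10, where 3 knockout libraries lie between 58.0 and 64.3 FPKM and 3 controls between 68.5 and 78.2 FPKM.

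The proton pump members came first in level. Tcirg1 (chromosome 19, 3896050 to 3907133 on the minus strand of GRCm38, from GENCODE M21) had 304, 331 and 315 FPKM in male knockout libraries 1, 2 and 3, against 354, 394 and 280.2 FPKM in male controls 1, 2 and 3. In females it had 316, 305 and 334 FPKM in knockout, against 309.8, 337 and 313 FPKM in control. The groups overlapped in both sexes, and the highest and the lowest of the 12 values both came from male controls. Atp6v0d2 (chromosome 4, 19876841 to 19922605 on the minus strand) varied more. It had 411, 369.95 and 330.0 FPKM in male knockout, against 377, 415 and 344 FPKM in male control. In females it had 239, 240.5 and 330.2 FPKM in knockout, against 426, 292 and 407 FPKM in control. Female knockout 1 and 2 were the lowest of the 12 libraries and female control 2 the next lowest, so the female groups overlapped through that control.

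Tcirg1 and Atp6v0d2 each have close relatives that can take the same place in the pump, and both held most of the FPKM of their subunit's genes. These shares rest on the gene lengths used and do not measure subunit protein. Tcirg1 made up 93.0%, 93.2% and 94.3% of the summed FPKM of the 4 a subunit genes in female knockout, against 94.2%, 93.7% and 94.8% in female control. In males its share was 94.6%, 95.03% and 94.98% in knockout, against 94.4%, 95.7% and 94.1% in control. Atp6v0a1 and Atp6v0a2, the other a subunits detected, averaged 9.77 ± 1.81 and 9.43 ± 0.673 FPKM over the 6 controls, and Atp6v0a4, known from kidney, was listed at 0 in all libraries. Atp6v0d2 held 75.8%, 77.6% and 79.3% of d subunit FPKM in female knockout, against 82.6%, 78.2% and 83.2% in female control. In males it held 82.6%, 80.3% and 78.3% in knockout, against 78.6%, 81.0% and 81.1% in control. The rest was Atp6v0d1, the widely expressed d subunit, at 88.9 ± 9.38 FPKM over the 6 controls. Averaged over the sexes, the Tcirg1 share differed by -0.294 percentage points between knockout and control (two-sided exact permutation test within sex, 400 arrangements, p = 0.43). The Atp6v0d2 share differed by -1.81 points (p = 0.21 by the same exact permutation test). Neither difference was larger than the spread between libraries by this test.

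The chloride exchanger and its partner differed about 5-fold in FPKM, which rests on the gene lengths used. Clcn7 (chromosome 17, 25133391 to 25162104 on the plus strand) had 108, 109 and 100.1 FPKM in male knockout, against 119, 129 and 83.5 FPKM in male control. In females it had 98.4, 88.1 and 109 FPKM in knockout, against 103, 107 and 108 FPKM in control. Male control 3 was the lowest of the 12 and male control 2 the highest. Ostm1 (chromosome 10, 42583822 to 42702459 on the plus strand) had 19.5, 20.3 and 20.05 FPKM in male knockout, against 21.2, 22.3 and 17.8 FPKM in male control. It had 19.0, 19.3 and 20.2 FPKM in female knockout, against 20.2, 21.2 and 19.3 FPKM in female control. Ostm1 was the steadiest of the 8, with a highest value 1.25 times its lowest. The ratio of Clcn7 to Ostm1 lay between 4.57 and 5.82 in the 12 libraries, and averaged 5.30 ± 0.288 in male knockout, 5.38 ± 0.596 in male control, 5.04 ± 0.422 in female knockout and 5.24 ± 0.299 in female control (SD, n = 3 each). Of the relatives of Clcn7, Clcn4 was the highest at 9.31 ± 0.689 FPKM over the 6 controls, and Clcn6, a late endosomal exchanger, was at 2.70 ± 0.257 FPKM.

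Among the 6 members with a promoter window in the RefSeq table for GRCm38.p6 (12 windows in all), 3 windows held 1 of 3 fixed motifs of osteoclast or lysosomal regulators. They are shown because they are the only such windows, and for the regulators tied to each motif. CACGTG is an E-box and also the core of the element bound by the lysosomal regulators Tfeb and Tfe3, so a match names no single regulator. TCATGTG is bound by Mitf, and TGANTCA by AP-1 (Fos and Jun). Each runs from 250 bases before to 50 bases after an annotated transcript start on the plus strand, with the motif in capitals. The first Clcn7 window is chr17:25133141-25133440, the second is chr17:25136381-25136680, and the Snx10 window is chr6:51523834-51524133.
Clcn7 first window: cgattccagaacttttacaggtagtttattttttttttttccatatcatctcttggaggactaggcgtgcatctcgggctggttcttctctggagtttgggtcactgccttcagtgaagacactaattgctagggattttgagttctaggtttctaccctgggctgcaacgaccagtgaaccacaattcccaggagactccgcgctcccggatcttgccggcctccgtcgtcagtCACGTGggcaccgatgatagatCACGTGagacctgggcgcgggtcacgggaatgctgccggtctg
Clcn7 second window: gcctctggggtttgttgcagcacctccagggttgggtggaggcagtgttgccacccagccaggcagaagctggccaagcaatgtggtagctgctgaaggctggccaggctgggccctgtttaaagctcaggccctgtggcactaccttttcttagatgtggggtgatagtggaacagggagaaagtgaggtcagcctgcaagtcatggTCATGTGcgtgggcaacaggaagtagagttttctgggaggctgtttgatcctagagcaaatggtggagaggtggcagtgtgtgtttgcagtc
Snx10 window: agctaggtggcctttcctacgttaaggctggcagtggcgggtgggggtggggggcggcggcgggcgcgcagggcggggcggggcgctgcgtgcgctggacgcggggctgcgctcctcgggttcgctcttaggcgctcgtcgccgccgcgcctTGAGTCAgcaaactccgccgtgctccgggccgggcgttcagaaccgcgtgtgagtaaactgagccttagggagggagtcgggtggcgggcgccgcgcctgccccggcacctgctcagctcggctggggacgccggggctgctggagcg
The first Clcn7 window held CACGTG beginning 15 bases before and 7 bases after the start. The second held TCATGTG beginning 42 bases before its start, and the Snx10 window held TGAGTCA, a form of TGANTCA, beginning 98 bases before. Both strands were searched, and no match of one motif overlapped a match of another. Of all 32851 windows in the table, 7.15% held CACGTG, 3.77% TCATGTG and 7.81% TGANTCA. The short NFAT core GGAAA was in 6 of the 12 windows, against 61.3% of all windows. These matches are letters in a window and were not tested as binding sites.

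The genes of bicarbonate handling had their lowest values in female libraries. Car2 (chromosome 3, 14886273 to 14900770 on the plus strand) had 87.2, 91.5 and 84.4 FPKM in male knockout, against 96.2, 96.1 and 77.2 FPKM in male control. In females it had 57.4, 58.3 and 85.2 FPKM in knockout, against 91.5, 71.0 and 95.2 FPKM in control. As for Atp6v0d2, female knockout 1 and 2 and female control 2 were the 3 lowest of the 12 libraries, and the female groups overlapped through female knockout 3. Car2 was the main carbonic anhydrase by FPKM. Car13, another cytosolic form, averaged 11.2 ± 2.30 FPKM over the 6 controls, the hypoxia-induced Car9 was at 2.39 ± 0.343 FPKM, and Car1, the form of red cells, was listed at 0 in every library.

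Slc4a2 (chromosome 5, 24423837 to 24440950 on the plus strand) had 45.7, 45.9 and 39.6 FPKM in male knockout, against 43.5, 51.3 and 33.3 FPKM in male control. It had 30.4, 27.8 and 40.1 FPKM in female knockout, against 37.8, 31.8 and 38.0 FPKM in female control. The same 3 female libraries were again the lowest of the 12. Exons of Fastk, on the opposite strand, cover 1141 of the 8322 exon bases of Slc4a2, and Fastk reached 21.7 FPKM. Whether counting used strand is not given, so how reads in that stretch were counted for either gene is not known. Slc4a7, a sodium bicarbonate cotransporter, averaged 18.4 ± 1.92 FPKM over the 6 controls. Slc4a3, the closest relative of Slc4a2, stayed below the filter, at 0.717 ± 0.0907 FPKM in male knockout and 0.886 ± 0.270 FPKM in male control (SD, n = 3 each).

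Of the 8 genes, 1 traffic gene was the only one whose knockout and control libraries did not overlap, and that in females. Snx10 (chromosome 6, 51523901 to 51590679 on the plus strand) encodes a sorting nexin that binds endosomal lipids. It had 77.6, 74.3 and 66.1 FPKM in male knockout, against 73.6, 83.0 and 66.9 FPKM in male control, and these groups overlapped. In females it had 58.0, 61.9 and 64.3 FPKM in knockout, against 77.8, 68.5 and 78.2 FPKM in control. Here every knockout library was below every control. Among all genes tested, 6.85% had every female knockout library below every female control. Snx11, its nearest relative, averaged 5.67 ± 0.435 FPKM over the 6 controls. Plekhm1 (chromosome 11, 103364275 to 103412687 on the minus strand), an adaptor that links Rab7 on late endosomes and lysosomes to the fusion machinery, had 26.4, 26.4 and 22.9 FPKM in male knockout, against 26.6, 27.3 and 21.6 FPKM in male control. It had 23.5, 21.3 and 25.6 FPKM in female knockout, against 23.7, 25.7 and 25.0 FPKM in female control. The groups overlapped in both sexes. Its relative Plekhm2, which works with Arl8 on lysosomes, was at 18.5 ± 2.57 FPKM over the 6 controls.

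In males none of the 8 genes passed the test of knockout against control, which used limma on log2(FPKM + 1) with Benjamini-Hochberg adjustment over all genes tested. By that rule 0.00817% of all genes were called, which is 1 gene, the chemokine receptor Cx3cr1 (named after its values were seen). No gene was called with the replicate number within each sex as a block, with the male libraries alone, without the 3 libraries of high interferon sums, or without male knockout 2, male control 1 or male control 2. Without male control 3, 64 genes and none of the 8 were called. With voom on the rebuilt fragments, 13 genes (0.106%) and none of the 8 were called. At an unadjusted p under 0.05 stood 0 of the 8, against 14.6% of all genes. The log2 changes ran from -0.10 for Tcirg1 to 0.05 for Slc4a2, with a median of -0.03 beside -0.0049 over all genes, and adjusted p ran from 0.719 to 0.987. Of the 8, 6 were below 0, against 51.2% of all genes, or 7 after quantile normalization, which turned Plekhm1. None had knockout and control libraries that did not overlap, against 23.4% of all genes. Their 95% intervals together spanned -0.40 to 0.41. Male control 3 was the lowest of its group for all 8 genes and male control 2 the highest for 7. The signs in males rested on single libraries: without male control 2, the 6 genes below 0 moved above it, to at most 0.08.

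In females no gene of the table was called, so percent called was 0%, and none was with voom on the rebuilt fragments. The means of all 8 genes were below control, with a median log2 change of -0.12 beside -0.0083 over all genes, although Tcirg1 turned to 0.01 after median ratio rescaling. Of all genes 52.1% were below 0. At an unadjusted p under 0.05 stood 3 of the 8, all lower in knockout, against 6.09% of all genes lower at that level. These were Snx10, Atp6v0d2 and Car2. After quantile normalization 1 of the 8 stood there, and the share of all genes at that level in that fit is not given here. Without the 3 libraries of high interferon sums the median log2 change of the 8 was 0.04. Atp6v0d2 averaged 269.8 ± 52.3 FPKM in knockout and 375 ± 72.3 FPKM in control, and the log2 difference was -0.47 ± 0.166 (SE; limma adjusted p = 0.392). Snx10 averaged 61.4 ± 3.16 FPKM in knockout and 74.8 ± 5.49 FPKM in control, and the log2 difference was -0.28 ± 0.0952 (SE; limma adjusted p = 0.388). Car2 averaged 67.0 ± 15.8 FPKM in knockout and 85.9 ± 13.04 FPKM in control, and the log2 difference was -0.37 ± 0.161 (SE; limma adjusted p = 0.427). The other 5 lay between -0.14 for Slc4a2 and -0.01 for Tcirg1. Leaving out 1 library at a time gave ranges of -0.29 to -0.03 for Slc4a2, -0.18 to -0.03 for Clcn7, -0.14 to -0.01 for Plekhm1 and -0.08 to -0.02 for Ostm1. Their 95% intervals all included 0, and those of Atp6v0d2 (-0.84 to -0.10), Car2 (-0.72 to -0.01) and Snx10 (-0.49 to -0.07) did not. After adjustment over all genes none of the differences passed the threshold.

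**Figure D2:**
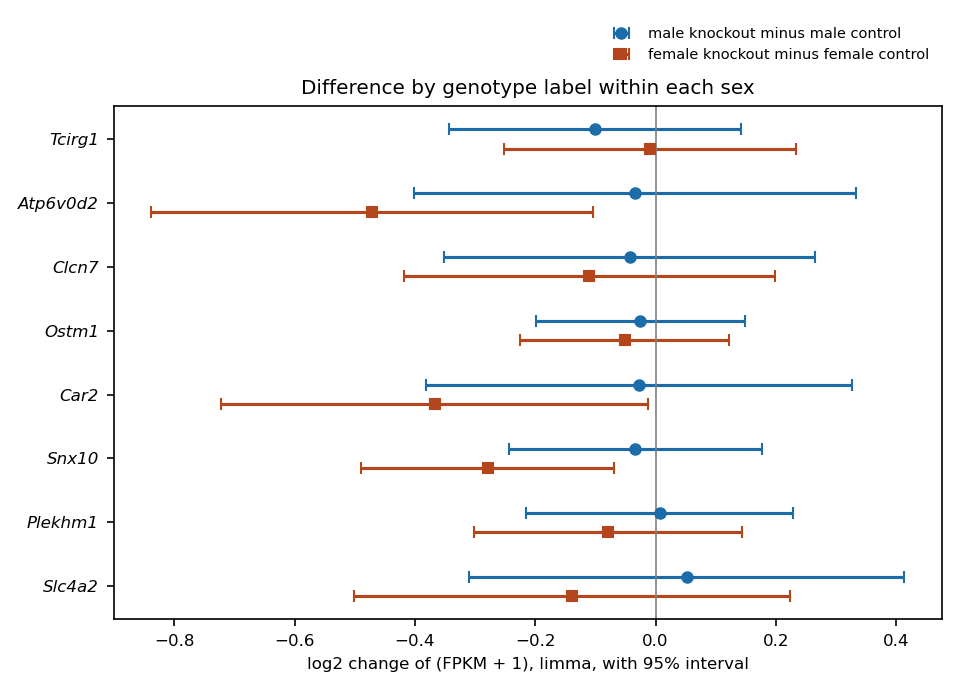
Log2 change of (FPKM + 1) for each gene, knockout minus control, in males (blue circles) and females (orange squares), with the 95% interval from limma (bars). In females Atp6v0d2, Car2 and Snx10 lie at -0.47, -0.37 and -0.28 with intervals below 0, and in males all 8 lie between -0.10 and 0.05; no adjusted p was under 0.05, and Tcirg1 in females and Plekhm1 in males changed sign under another scaling.

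The lowest female values of Atp6v0d2, Car2 and Slc4a2 were in the 3 libraries of high interferon transcript. Marker sums of osteoclasts, of monocytes and macrophages, and of lymphocytes moved with the same 3 libraries. Their osteoclast marker sums lay between 9649 and 11690 FPKM, against 11798 to 17332 FPKM in the other 9. Their monocyte and macrophage marker sums lay between 9176 and 11376 FPKM, against 4740 to 8502 FPKM, and their lymphocyte marker sums between 49.1 and 63.7 FPKM, against 17.1 to 45.8 FPKM. These 3 libraries were thus the lowest of the 12 for the osteoclast marker sum and the highest for the monocyte and macrophage and the lymphocyte sums. Their neutrophil, stromal and erythroid marker sums overlapped those of the other 9. A sum of FPKM rests most on its highest genes, such as Ctsk among the osteoclast markers. Atp6v0d2 lay between 239 and 292 FPKM in the 3 libraries of high interferon sums, against 330.2 to 426 FPKM in the other 3 female libraries and 330.0 to 415 FPKM in the 6 male ones. Car2 lay between 57.4 and 71.0 FPKM in those 3, against 85.2 to 95.2 FPKM in the other 3 female libraries. Slc4a2 lay between 27.8 and 31.8 FPKM in those 3, against 37.8 to 40.1 FPKM. For Tcirg1, Ostm1, Clcn7, Plekhm1 and Snx10 the same 3 libraries overlapped the other 9. Of the 3, 2 are labelled knockout and 1 control, so interferon transcript and genotype label overlap in females. With these 3 left out, only female knockout 3 remained beside female controls 1 and 3, and its spread was taken from the other groups. The log2 change was then -0.33 for Atp6v0d2, -0.28 for Snx10 and -0.13 for Car2, and none was called. Tcirg1, Clcn7, Ostm1, Plekhm1 and Slc4a2 were then above 0, between 0.03 and 0.10, and the median of the 8 was 0.04. The part of the interferon response, or of the cell types, in the difference was not tested.

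**Figure D3:**
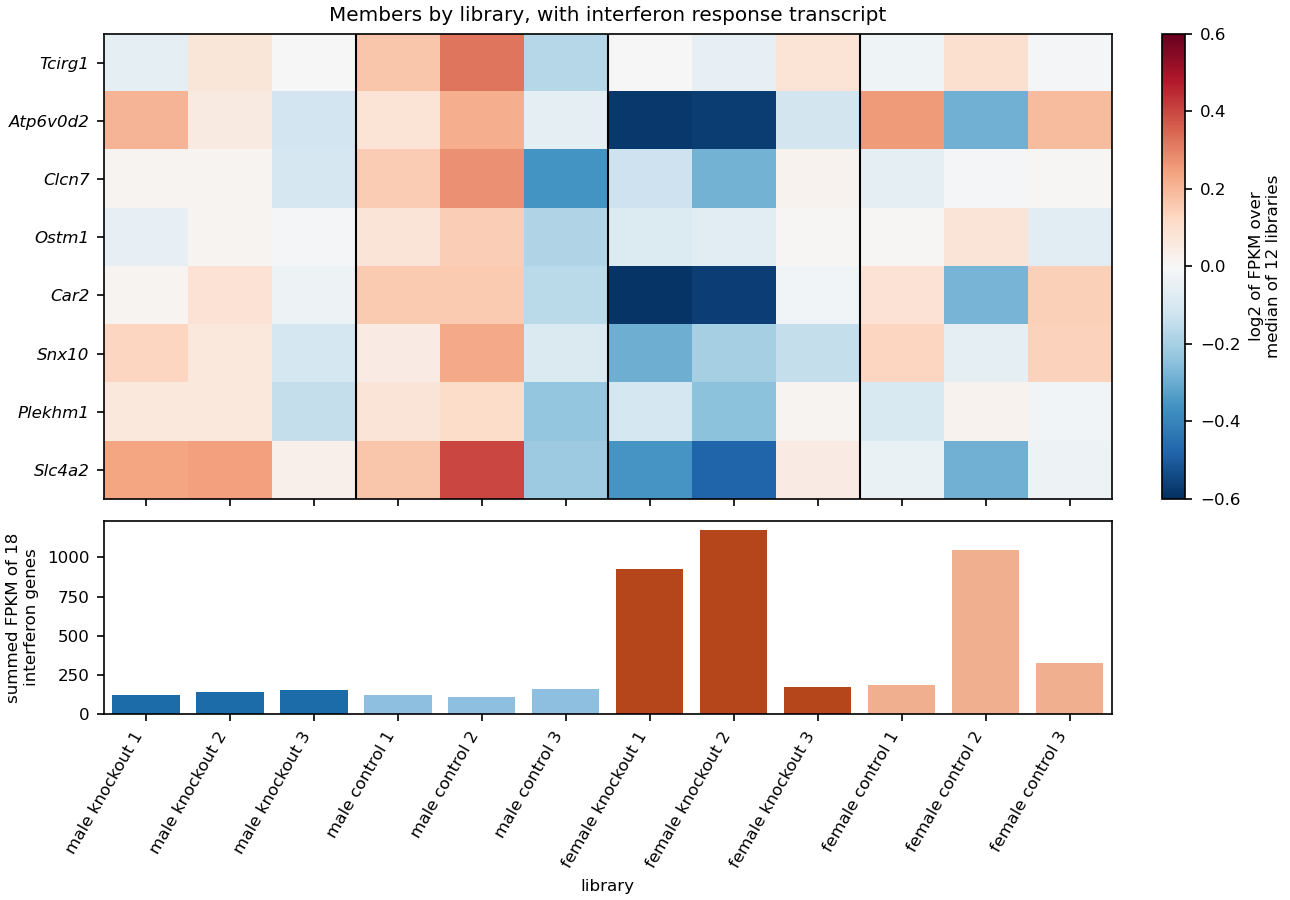
Top, log2 of each gene's FPKM over its median of the 12 libraries (colour), by library, with black lines between groups; bottom, summed FPKM of 18 interferon response genes in the same libraries (bars coloured by group). Female knockout 1, female knockout 2 and female control 2 have sums of 927, 1175 and 1047 FPKM and the lowest Atp6v0d2, Car2 and Slc4a2 values.

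The groups of knockout and control libraries overlapped in the marker sums of both osteoclasts and of monocytes and macrophages, in each sex. The 10 markers summed to 9788, 9649 and 12286 FPKM in female knockout, against 14306, 11690 and 13400 FPKM in female control. All 10 had a log2 change below 0 (9 after median ratio rescaling or quantile normalization), with a median of -0.21, and none was called. Without the 3 libraries of high interferon sums, 6 were below 0 and the median was -0.09. With array weights, whose estimate did not converge, 6 were called. That fit called 40% of all genes in either direction in females, and 21% lower. The 12 monocyte and macrophage markers summed to 9176, 11376 and 7095 FPKM in female knockout, against 8132, 11110 and 7564 FPKM in female control. In females 8 of these 12 had a log2 change above 0, with a median of 0.07, and none was called. Without the 3 libraries of high interferon sums the direction turned, with 9 below 0 and a median of -0.14. In males the 12 summed to 4740, 5679 and 6290 FPKM in knockout, against 8502, 6251 and 8469 FPKM in control. All 12 were below 0 there, with a median of -0.44. Of them 7 stood at an unadjusted p under 0.05, against 6.54% of all genes lower at that level, and Cx3cr1 was called. The osteoclast markers in males had 6 of 10 below 0 and a median of -0.06 (5 of 10 and 0.01 after quantile normalization). None of the monocyte, macrophage or osteoclast markers was at 0 in any group. In bulk RNA, fewer osteoclasts in a culture and less of a transcript per osteoclast cannot be told apart. The part of cell composition in the values of the 8 genes and of the other lists was not tested.

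Weighting the libraries by their estimated quality changed the calls. With limma's array weights, 4 of the 8 genes were called lower in female knockout: Atp6v0d2 (-0.74), Car2 (-0.62), Snx10 (-0.39) and Slc4a2 (-0.28). The same fit called 21% of all genes lower in that comparison, and 40% in either direction. Its estimate of the weights did not converge, and gave female knockout 1 a weight of 9.11 and female control 2 a weight of 0.286. Both are libraries of high interferon sums. Female knockout 2, also such a library, had a weight of 0.680, and female knockout 3 had 0.332. The part of the interferon response in these calls was not tested.

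Averaged over the sexes, with equal weight for each, no gene of the 8 was called, against 0.00817% of all genes, again only Cx3cr1, and 0 genes without the 3 libraries of high interferon sums. At an unadjusted p under 0.05 stood Snx10 alone, at -0.16 ± 0.0673 (SE; limma adjusted p = 0.468), against 5.43% of all genes lower at that level. All 8 had a mean change below 0, against 51.1% of all genes, from -0.25 for Atp6v0d2 to -0.04 for Plekhm1. Without the 3 libraries of high interferon sums, 4 were below 0 and 4 above it, with a median of -0.00048 in place of -0.07. With array weights 3 of the 8 were called lower in this average, against 9.41% of all genes lower.

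The test of whether the knockout difference itself differed between the sexes (female minus male) called none of the 8, and 0% of all genes. At an unadjusted p under 0.05 stood 0 of the 8, against 17% of all genes. Of the 8, 7 were below 0, against 50.9% of all genes, or 6 after quantile normalization, which turned Ostm1. Without the 3 libraries of high interferon sums 3 of the 8 were below 0, and their median was 0.04 in place of -0.14. Atp6v0d2 had the lowest value, -0.44 ± 0.235 (SE; limma adjusted p = 0.356), with a 95% interval of -0.96 to 0.08. That females and males differ in these genes was therefore not shown. Between the controls, female minus male, none of the 8 was called, against 0.0572% of all genes. At an unadjusted p under 0.05 stood 0 of the 8, against 5.57% of all genes, and voom called 9 genes (0.0735%) and none of the 8. Of the 8, 7 were below 0, against 47.5% of all genes, or all 8 after quantile normalization, which turned Snx10. The member farthest from 0 was Slc4a2, at -0.23 ± 0.164 (SE; limma adjusted p = 0.895), from 35.8 ± 3.51 FPKM in female control and 42.7 ± 8.99 FPKM in male control.

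The other genes of acid secretion were followed in 6 lists chosen by role, with earlier results of these data known. Of 23 other V-ATPase subunits and accessory proteins, 17 passed the filter, and none was called in either sex. In females 12 of the 17 were below 0, with a median log2 change of -0.17, and 8 stood at an unadjusted p under 0.05, all lower, against 6.09% of all genes lower at that level. Atp6v1g1, a subunit of the pump's stalk, averaged 249 ± 11.2 FPKM in female knockout and 322 ± 34.5 FPKM in female control (log2 change -0.36 ± 0.103, SE; limma adjusted p = 0.366). Every female knockout library was below every female control, as for 6.85% of all genes. Atp6ap2, the prorenin receptor and an accessory protein of the pump, averaged 198 ± 24.0 FPKM in female knockout and 258 ± 31.8 FPKM in female control (limma adjusted p = 0.379). Atp6v1b2, the catalytic head's B2 subunit, averaged 252 ± 43.8 FPKM in female knockout and 339.5 ± 49.5 FPKM in female control (limma adjusted p = 0.382). Without the 3 libraries of high interferon sums, 8 of the 17 were below 0 in females, and their median was 0.00063. After quantile normalization 4 stood at an unadjusted p under 0.05 and lower. The share of all genes at that level in that fit is not given here. In males 11 of the 17 were below 0, with a median of -0.08, and 0 stood at an unadjusted p under 0.05. Atp6v0a1 had the lowest p there, at 7.50 ± 0.447 FPKM in knockout and 9.72 ± 1.94 FPKM in control (limma adjusted p = 0.351).

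None of the remaining lists held a called gene in either sex. With array weights the 6 lists did hold calls: in females 14 of the 17 V-ATPase genes, 10 of 26 traffic genes, 14 of 24 other osteopetrosis genes, 5 of 7 bicarbonate and proton transporters, 4 of 7 chloride channels and exchangers and 1 of 3 carbonic anhydrases, in either direction, against 40% of all genes. In males that fit called 2 traffic genes, among them Fam98a, and Slc9a9 and Csf1r, against 9.66% of all genes. Only 3 of 15 other carbonic anhydrases passed the filter, namely Car13, Car9 and Car5b, with a median log2 change of 0.09 in females and 0.05 in males. Of 12 other chloride channels and exchangers listed, 7 were tested, with medians of -0.04 in females and -0.06 in males. Clcn6 was the only one of them at an unadjusted p under 0.05, higher in female knockout (log2 change 0.20, limma adjusted p = 0.420). The 7 tested of 14 bicarbonate and proton transporters had medians of -0.12 in females and -0.05 in males. Slc9a9, an endosomal sodium-proton exchanger, had the lowest p of this list in males, at 0.464 to 0.746 FPKM in knockout against 1.42 to 2.02 FPKM in control, with no overlap, as had 23.4% of all genes in males (log2 change -0.81 ± 0.162, SE; limma adjusted p = 0.105). At this low level the log2 change varied with the pseudocount and the fit, from -1.61 with voom to -0.28 with a pseudocount of 5. In females it averaged 1.95 ± 0.566 FPKM in knockout and 1.69 ± 0.434 FPKM in control.

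The 26 tested genes of lysosome to ruffled border traffic had medians of 0.01 in females and -0.06 in males. Without the 3 libraries of high interferon sums their female median was -0.03. In females 5 of them stood at an unadjusted p under 0.05 and lower, against 6.09% of all genes. After quantile normalization 3 did, and the share of all genes in that fit is not given here. Among the 5 were Arl8b, a lysosomal GTPase (-0.32, limma adjusted p = 0.392), the SNARE protein Snap23 (-0.27, limma adjusted p = 0.401) and the tethering subunit Vps41 (-0.22, limma adjusted p = 0.401). In males Fam98a, which has been tied to Plekhm1 and Ndel1 in mouse osteoclasts, averaged 12.0 ± 0.666 FPKM in knockout and 9.25 ± 0.813 FPKM in control (0.35, limma adjusted p = 0.127). These groups did not overlap, as for 23.4% of all genes in males in either direction. The 24 tested of 25 other osteopetrosis genes had medians of -0.02 in females and -0.03 in males. The female medians of these last lists changed sign under another scaling, to -0.0049 for traffic genes after quantile normalization and to 0.00091 for osteopetrosis genes after median ratio rescaling. Ctsk, with 4808 ± 768 FPKM in female knockout and 6446 ± 1150.4 FPKM in female control, had the lowest p of this list in females (limma adjusted p = 0.418). In males it was Csf1r, the M-CSF receptor, with 231 ± 6.26 FPKM in knockout and 283 ± 37.4 FPKM in control (limma adjusted p = 0.216). Csf1r is also 1 of the 12 monocyte and macrophage markers that were lower in mean in male knockout. Ctsk, Dcstamp, Ocstamp, Itgb3, Nfatc1 and Tnfrsf11a are both in this list and among the osteoclast markers. Mitf, whose motif stands in the second Clcn7 window, averaged 22.0 ± 1.71 FPKM in male knockout and 18.3 ± 2.21 FPKM in male control (limma adjusted p = 0.280), and 17.6 ± 0.731 FPKM in female knockout and 19.5 ± 2.13 FPKM in female control.

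**Figure D4:**
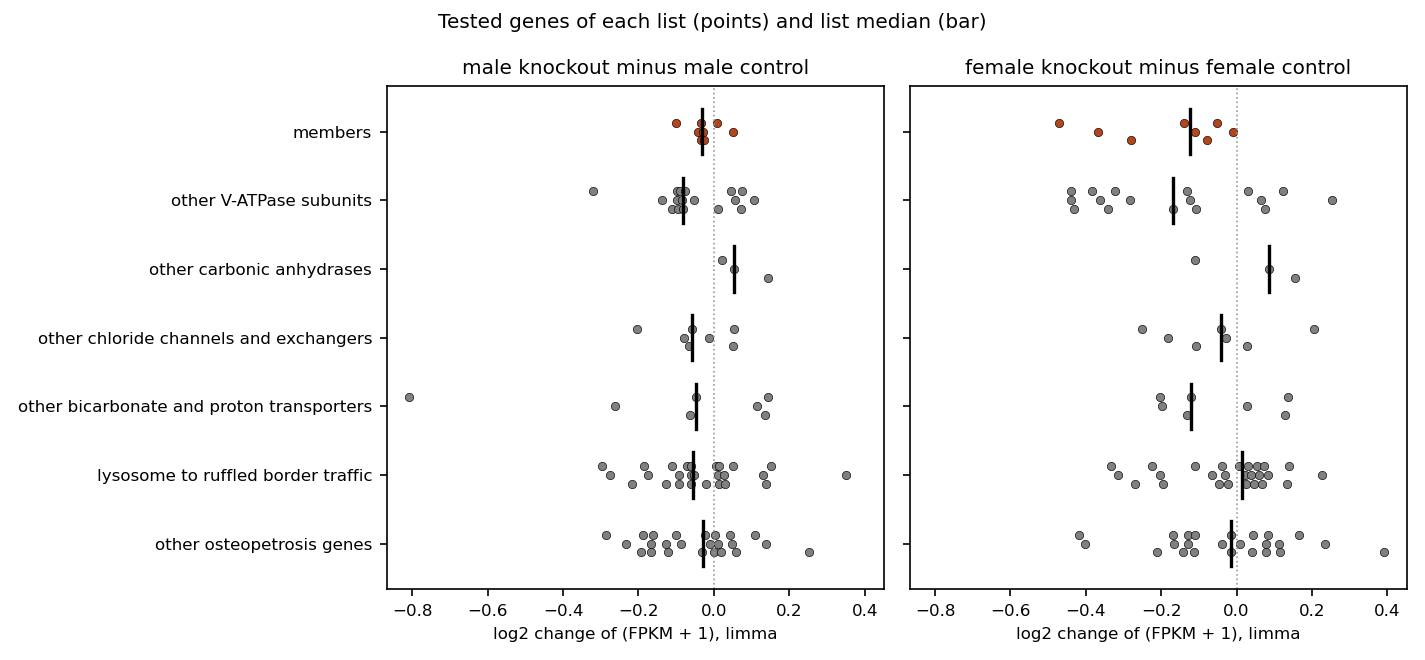
Log2 change of (FPKM + 1), knockout minus control, of the tested genes of 7 lists (points; vertical offsets only separate them) with each list's median (bar), in males (left) and females (right). In females the 8 genes have a median of -0.12 and the other V-ATPase subunits of -0.17, while the other lists have medians from -0.12 to 0.09; no point passed the adjusted threshold.

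Across libraries the 8 genes varied together to different degrees. The correlation of each with the mean of the other 7, on standardized log2(FPKM + 1), was highest for Clcn7 (r = 0.910, rho = 0.895) and lowest for Tcirg1 (r = 0.688, rho = 0.503) over the 12 libraries. These values describe 12 libraries that share groups and batch numbers. Of 8958 protein-coding genes of mean FPKM 2 or more outside the 8, those closest to the mean of the 8 were Adcy3 (r = 0.981), Fam102a (r = 0.965), Tspan7 (r = 0.962), Slc11a2 (r = 0.962) and Myo1d (r = 0.961), again over 12 libraries. Without the 2 libraries farthest from the median the r of these 5 genes lay between 0.928 and 0.965. Adcy3 encodes an adenylyl cyclase and Slc11a2 an iron transporter. Adcy3 averaged 11.2 ± 1.78 FPKM in female knockout and 13.03 ± 1.07 FPKM in female control (limma adjusted p = 0.604).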

How the data were processed

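The deposited table holds FPKM for 12 libraries of mouse RNA-seq, computed by the authors and scaled by gene length and by a library depth that is not the table's own total, per the file headers and values. Per the labels' protocols, a Zymo Quick RNA Microprep kit gave total RNA and an NEBNext Ultra II kit the libraries. The submitters' processing notes list the build mm10 and, as tools, featureCounts 1.5.0-p3 and HISAT2 2.0.5; the sources used here do not state strand use. Deposited coordinates matched GENCODE M21 on GRCm38 for 1546 of 52132 shared identifiers (2.97%), and for 1 of the 8 genes, so positions are given from GENCODE M21. An emptied line (1) of the table was not used here.

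Fragments per gene were rebuilt by multiplying FPKM by gene length, since 100% of the products were whole numbers of steps (tolerance 0.01). At this depth 3 fragments on 1 kb correspond to 0.119 to 0.188 FPKM, for counting error only. The filter asked for 1 FPKM in 3 libraries (12237 genes kept, 43569 removed). The model, from limma 3.58.1 (R 4.3.3), described log2(FPKM + 1) by a mean per group over all 12 libraries, moderated variances with a trend, two-sided, and Benjamini-Hochberg adjustment over all genes tested at 0.05. Fold changes on this scale understate those of low genes. The scripts were tested on simulated data.

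The members, gene lists and tests were chosen with earlier results of these data known. Named were the 8 genes, Per1, direct relatives, the 3 genes of lowest p per list and comparison (the male, female and averaged ones), from which the text takes examples, and the 5 genes most like the mean of the 8. Alternatives were the pseudocount, filter, scaling, variance model, library weights, voom, the libraries in the fit, the replicate block and leaving out libraries. In the labels, libraries of one number have the same batch number, so they may be paired, though no pairing is stated. The main fit had no block for this number, and the replicate block was run as an alternative. Over the 18 same-numbered pairs the correlation of deviations from group means ran from -0.217 to 0.440, and in 4 pairs it was above 0.1. Its mean was -0.0034 over these pairs and -0.00066 over pairs of different number. Rebuilt fragments of every pair of replicates differed beyond sampling noise (chi-square per gene 5.71 to 59.7). Promoter sequences are from RefSeq on GRCm38.p6, with Python 3.11.15.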

Additional observations from a re-analysis of the deposited data

How the results depend on the processing

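No member was called in any comparison under any alternative other than library quality weights, whose fit called 4 members in females, 3 in the average over the sexes and 3 in the difference between the sexes, all lower, beside 21%, 9.41% and 16.9% of all genes called lower, and 0 in males and between the controls. The cause was not tested. The replicate block called 0 members in all 5 comparisons, over all libraries or within sex, and within same-numbered pairs the share of Tcirg1 had p = 0.344 and that of Atp6v0d2 p = 0.281 (exact permutation tests, 64 arrangements), so it changed no call of a member or share. Of the genes called over the whole table, the block within sex left 0 in males, against 1, and 4 in female against male control, against 7. Over the other alternatives but the weights, that count lay between 0 and 64 in males (64 without male control 3), between 0 and 13 in the average (13 with no filter), between 4 and 9 between the controls, between 0 and 75 in females (75 with no filter) and between 0 and 16 in the difference between the sexes (16 with no filter); the weights called 1182 genes in males, 4890 in females, 2068 in the average and 3903 in the difference between the sexes. Of 984 recomputed changes of single members, 65 had the opposite sign, none of them called in either form. Directions in females of Atp6v0d2, Car2 and Snx10 held in every alternative run.

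Under quantile normalization, sign was reversed for Plekhm1 at -0.0050 in males, Ostm1 at 0.020 in the difference between the sexes and Snx10 at -0.013 in female against male control. Under library quality weights, sign was reversed for Plekhm1 at -0.032 and Slc4a2 at -0.010 in males, Tcirg1 at 0.010 in females, Clcn7 at 0.033 in the difference between the sexes, Atp6v0d2 at 0.067 in female against male control and Car5b at 0.013 in the average over the sexes. Under median ratio rescaling, sign was reversed for Tcirg1 at 0.0081 in females. Without the 3 libraries of high interferon score, sign was reversed for Tcirg1 at 0.10, Clcn7 at 0.043, Ostm1 at 0.030, Plekhm1 at 0.069, Slc4a2 at 0.079, Car9 at -0.027 and Car13 at -0.16 in females, Clcn7 at 7.7e-05, Ostm1 at 0.0026, Plekhm1 at 0.038, Slc4a2 at 0.065 and Car13 at -0.068 in the average over the sexes, Clcn7 at 0.086, Ostm1 at 0.056, Plekhm1 at 0.062 and Slc4a2 at 0.028 in the difference between the sexes and Atp6v0d2 at 0.14 and Car2 at 0.062 in female against male control. Under replicate block within sex, sign was reversed for Snx10 at -0.045 in female against male control. The 3 left-out libraries leave female knockout with 1 library, whose spread is assumed to be like that of the other groups.

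Leaving out 1 library at a time turned the sign of the following log2 changes, given with the lowest and highest value. In males the ranges were -0.24 to 0.0068 for Tcirg1, -0.11 to 0.045 for Atp6v0d2, -0.23 to 0.082 for Clcn7, -0.12 to 0.037 for Ostm1, -0.13 to 0.025 for Car2, -0.11 to 0.047 for Snx10, -0.10 to 0.073 for Plekhm1, -0.11 to 0.19 for Slc4a2, -0.0029 to 0.090 for Car5b and -0.0066 to 0.063 for Car13. In females the ranges were -0.044 to 0.029 for Tcirg1, -0.20 to 0.021 for Car5b and -0.028 to 0.28 for Car13. In the average over the sexes the ranges were -0.13 to 0.026 for Slc4a2, -0.0032 to 0.15 for Car13 and -0.073 to 0.037 for Car5b. In the difference between the sexes the ranges were -0.016 to 0.23 for Tcirg1, -0.19 to 0.12 for Clcn7, -0.089 to 0.066 for Ostm1 and -0.15 to 0.017 for Plekhm1. In female against male control the ranges were -0.22 to 0.022 for Tcirg1, -0.13 to 0.14 for Atp6v0d2, -0.23 to 0.086 for Clcn7, -0.10 to 0.056 for Ostm1, -0.17 to 0.062 for Car2, -0.065 to 0.089 for Snx10 and -0.12 to 0.046 for Plekhm1. Depth did not limit these genes, whose fewest rebuilt fragments in a library were 2235.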
